A study of Arabidopsis thaliana with 3 samples.

Results

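Flank summits are the peak summits of FLAG-tagged JMJ28 that lie between protein-coding genes and close to one of them. They were the nuclear summits outside every protein-coding gene extent and within 1000 bp of a gene end, and 1801 of 18368 nuclear summits met this (9.81%, exact 95% binomial interval 9.38 to 10.2). The list of summits came from chromatin immunoprecipitation and sequencing of Arabidopsis thaliana Col-0 seedlings, 14 days old, that carry JMJ28pro::JMJ28:3xFLAG, with 2 ChIP libraries of this genotype and 1 input library of the same genotype. The seedlings were raised at 22 °C under a long-day light regime, and an untagged control was not used here. The authors' single list gives a position and a score for each summit and no value per library, so depth and the spread between the libraries are unknown. Every value below describes this list, no difference was tested, and intervals cover counting error only.

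JMJ28 belongs to the plant KDM3 group of JmjC proteins, which are demethylases of histone H3 at lysine 9, and it is known for its part in photoperiodic flowering through CONSTANS. The DNA between neighbouring Arabidopsis genes is mostly short, and the same stretch can hold the promoter of a gene and the end region of its neighbour. An annotated gene extent includes the transcribed untranslated parts, so a flank summit lies outside the annotated transcript of any protein-coding gene. The gene table used here gives no strand. Whether a summit lay before a start or after an end, and whether its neighbours were divergent, convergent or in tandem, was therefore not analysed here. The nearest gene was at higher coordinates for 931 summits (51.7%, interval 49.4 to 54.0) and at lower coordinates for 866.

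Flank summits were thinner on the ground than summits inside genes and denser than those farther away. Flanks hold 24.3 Mb, or 20.4% of the bases between the first and the last protein-coding gene of the chromosomes, and carried 74.1 summits per Mb. Protein-coding genes carried 251 summits per Mb, so the ratio of flank to gene density was 0.295. Bases over 1000 bp from any protein-coding gene carried 12 per Mb.

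The summits crowded towards the gene. Their median distance from the nearest gene was 181 bp (interquartile range 67 to 401 bp), where 1 bp is the base next to the gene. Within 100 bp lay 594 of them (33%, interval 30.8 to 35.2), although this band holds 17.4% of flank bases. Within 10 bp lay 83, and within 500 bp lay 1481 (82.2%). Per Mb of bases available, the count was 140 at 1 to 100 bp, 106 at 101 to 200 bp, 77.2 at 201 to 300 bp and 24.7 at 901 to 1000 bp. Of the 10 bands of 100 bp, each was less dense than the band before it, except 801 to 900 bp (32.2 per Mb, after 29.8). Over all gaps, the density at like distances was higher on the gene side of the same ends. The first 50 bp outside carried 164 per Mb, and the first 50 bp inside 251 per Mb. At 951 to 1000 bp the values were 20.8 per Mb outside and 115 per Mb inside. The fullest 50 bp interval lay 151 to 200 bp inside, at 646 per Mb.

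**Figure D1:**
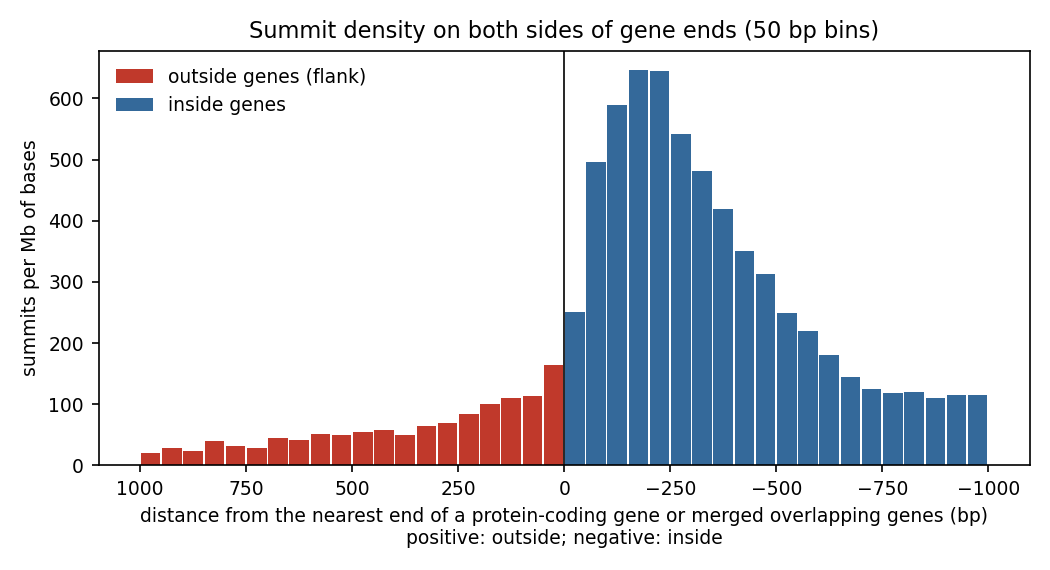
Summits per Mb of bases (vertical axis) by distance from the nearest edge of a gene, or of a block of overlapping genes, that encodes protein (horizontal axis, bp, 50 bp bars), with flank bases in red at positive distances and gene bases in blue at negative distances. The density is 164 per Mb in the first 50 bp outside and 251 per Mb in the first 50 bp inside, and the blue bars reach 646 per Mb at 151 to 200 bp inside.

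The 7 members in the last 10 bp before the distance limit of 1000 bp scored between 2.81 (1000 bp from mSFC1) and 26.4 (995 bp from AT1G31940), with GRF13 (22.5), OPT6 (17.2) and AT5G67430 (15.7) next to the highest. Of the 7 summits in the first 10 bp beyond it, 6 scored between 2.63 (nearest to HKL1) and 8.48 (nearest to emb1220), and the remaining summit scored 81.1 (nearest to AT3G17250).

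The gap between the neighbouring genes had a median of 1194.5 bp for the 1800 members that lie between 2 protein-coding genes (interquartile range 509.5 to 2369.5 bp), while the median of all 23810 gaps was 877 bp. The remaining member lay beyond the last gene at a chromosome end. Longer gaps offer more flank bases, and per base the order turned round. Gaps under 250 bp carried 330 flank summits per Mb, and gene bodies taken whole carried 251 per Mb. At like distances from a gene end, these gaps were denser than gene bases at 1 to 50 bp (358 and 251 per Mb). At 51 to 100 bp they were less dense (290 and 496 per Mb). Gaps of 250 to 499 bp carried 217 per Mb, those of 500 to 999 bp 119, those of 1000 to 1999 bp 69.1, those of 2000 to 4999 bp 47.7, and longer gaps 31.0. Counted per gap, the share that held a flank summit was lowest in gaps under 250 bp (3.60%, 204 of 5665), highest in gaps of 1000 to 1999 bp (9.69%, 440 of 4539) and 5.83% in gaps of 5000 bp and over.

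Among bases at 1 to 50 bp from a gene the order by gap length was alike, except between gaps of 500 to 999 bp and of 1000 to 1999 bp. Here, gaps under 250 bp carried 358 summits per Mb (exact Poisson interval 303 to 420). Gaps of 250 to 499 bp carried 220 per Mb (170 to 280) at this distance. Gaps of 2000 to 4999 bp carried 81.6 per Mb (57.1 to 113), and gaps of 5000 bp and over 56.4 (29.2 to 98.6). Gaps of 500 to 999 bp (113 per Mb) and of 1000 to 1999 bp (128 per Mb) did not differ beyond their intervals, 82.7 to 151 and 97.0 to 165. At 251 to 500 bp the order was the same in the 4 classes that have such bases, from 99.1 per Mb in gaps of 500 to 999 bp to 31.0 in gaps of 5000 bp and over. Within a class, density did not fall steadily with distance in gaps of 250 to 999 bp. At 101 to 250 bp, gaps of 250 to 499 bp carried 227 per Mb (187 to 273) and gaps of 500 to 999 bp 143 (123 to 166). In longer gaps it fell with distance. At 501 to 1000 bp it was 51.3 per Mb in gaps of 1000 to 1999 bp and 36.7 in gaps of 2000 to 4999 bp.

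**Figure D2:**
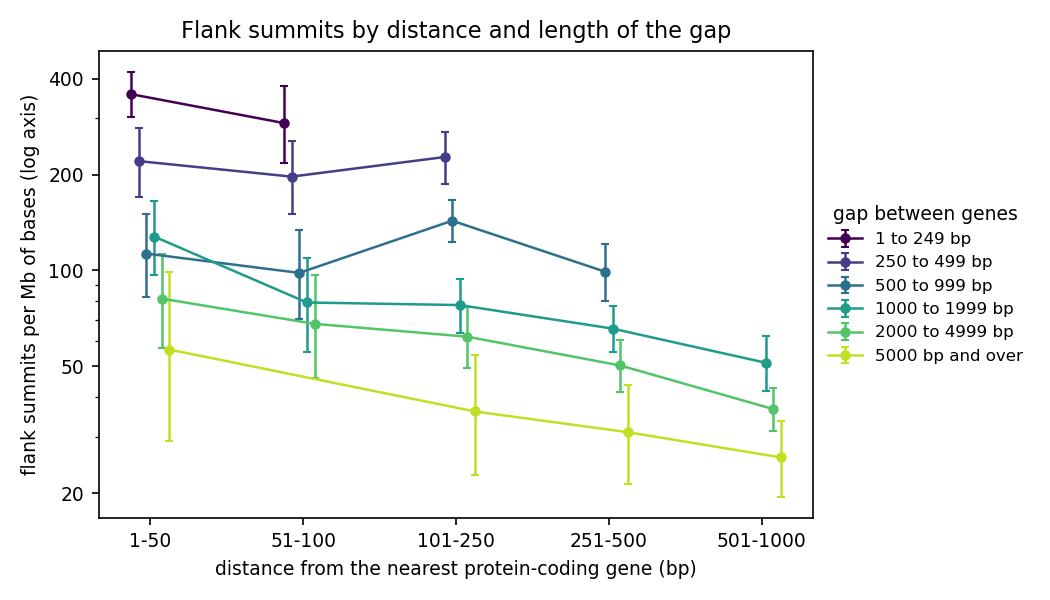
Flank summits per Mb of bases (vertical log axis) in 5 bands of distance from the nearest protein-coding gene (horizontal axis, bp), with a line for each class of gap length and exact 95% Poisson intervals as bars; points with fewer than 10 summits are left out. At 1 to 50 bp the value is 358 per Mb in gaps under 250 bp and 56.4 per Mb in gaps of 5000 bp and over.

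A gene stood within 1000 bp on each side of 976 members (54.2%, interval 51.9 to 56.5), although such bases make up 29.8% of the flanks. Their density was 135 per Mb, against 48.4 per Mb where a gene was in reach on 1 side only. Counting every protein-coding gene within 1000 bp, overlapping genes included, 804 members had 1 gene, 937 had 2 and 60 had 3. Of those with 2, 21 had both on the same side. Of the members between 2 near genes, 15.9% lay at 0 to 10% of the way from the nearer gene to the other. Next to the middle, at 40 to 50%, lay 21.4%. With 5 such intervals of equal width, the fullest was 30 to 40% of the gap, with 219 of the 976. Requiring a gene within 1000 bp on each side leaves out places near the edges of gaps over 1000 bp. Gaps of 1000 to 1999 bp held 180 of the 976, so these shares cannot show whether members avoid or crowd the edges.

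The nearest gene of a flank summit also held a summit inside in 809 cases (44.9%, interval 42.6 to 47.3). This share was close to the 47.7% of all protein-coding genes that held one. These nearest genes had a median extent of 2357 bp, and all protein-coding genes one of 2078 bp. The next summit of any kind lay at a median of 2189 bp from a flank summit and of 2161 bp from a summit inside a gene. Another summit lay within 1000 bp of 15.1% of flank summits (interval 13.5 to 16.8) and of 12.4% of summits inside genes (11.9 to 12.9). In the whole nuclear list no 2 summits were closer than 374 bp. What part this spacing had in the share of 44.9% was not tested.

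Whether the bordering genes held summits went with a member in the gap in opposite ways in short and long gaps. In gaps under 250 bp, 1.91% held a flank summit when both bordering genes had a summit inside (interval 1.33 to 2.65), 3.23% when 1 had, and 7.71% when neither had (6.14 to 9.53). In gaps of 2000 to 4999 bp the shares were 12.1% (10.1 to 14.3), 9.27% and 6.64% (5.48 to 7.96). The list's smallest spacing of 374 bp is longer than these short gaps, and its part in the first result was not tested.

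The scores of flank summits were close to those of other summits. The score is the authors' −log10 value for the summit, from either a p-value or a q-value, a strength of evidence and not an amount of protein. The median was 8.20 for flank summits (interquartile range 4.87 to 17.2) and 9.07 for summits inside genes (5.10 to 18.8), a difference of -0.87. Scores of 20 or more were found at 20.4% of flank summits and 22.4% of summits inside genes, and scores of 100 or more at 1.83% and 1.57%. Flank summits made up 10.4% of the lowest 25% of nuclear scores (interval 9.52 to 11.3) and 8.95% of the highest (8.15 to 9.81). Members with a near gene on each side had a median of 9.37, and the others 7.64. By gap length the median was 10.2 under 250 bp, 7.11 at 1000 to 1999 bp and 10.8 at 5000 bp and over. Where neither bordering gene held a summit of its own the median was 9.97, and where both did it was 7.36.

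**Figure D3:**
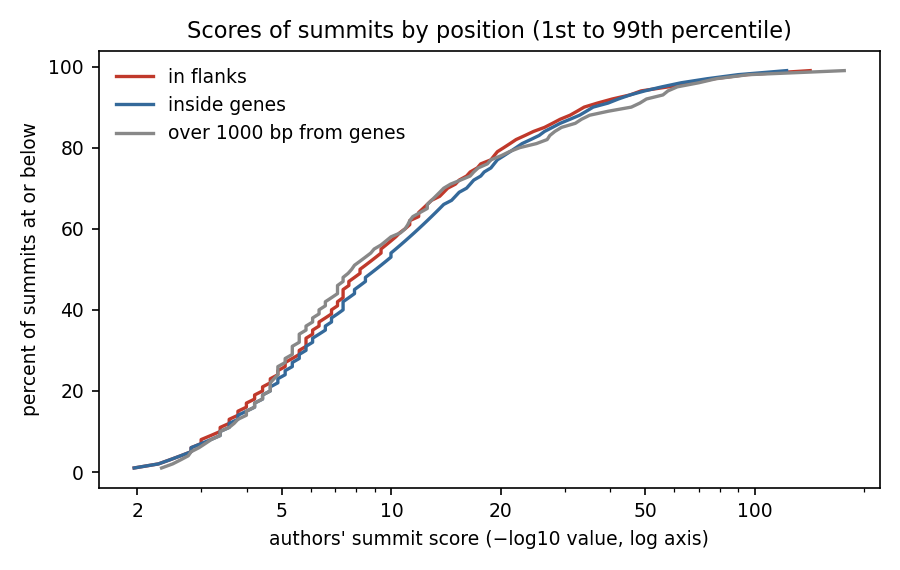
Cumulative percent of summits (vertical axis) by the authors' score (horizontal log axis) for summits in flanks, inside protein-coding genes and over 1000 bp from them, from the 1st to the 99th percentile. The curves run close together, with medians of 8.20 in flanks and 9.07 inside genes.

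The highest score of a flank summit was 935, at position 7388056 of chromosome 3 (TAIR10, counted from 1), 202 bp from AT3G21080 in a gap of 4094 bp. NADK1, which encodes an NAD kinase, bordered the gap on its other side and held a summit inside. On chromosome 2, the summits at positions 55150 (score 549.6, 682 bp from AT2G01045) and 52241 (score 463, 754 bp from AT2G01035) lay 2909 bp apart on either side of AT2G01045, and no bordering gene of either had a summit inside. The summit at position 821247 of chromosome 5 scored 485, 830 bp from AT5G03360, and the one at position 7279627 of chromosome 4 scored 258, 867 bp from AT4G12190. These 5 lay in gaps with a gene in reach on 1 side only, and 4 of them were over 500 bp from it. Among the 20 highest flank scores, of 142 and more, 9 had a near gene on each side, 6 were within 250 bp of a gene, 7 lay inside another kind of annotated gene, and in 11 cases neither bordering gene held a summit. Over all members, 54.2% had a near gene on each side. Within 200 bp of a gene lay 53.5%, a narrower limit than the 250 bp used for the 20. Another kind of annotated gene held 19.6% of them, and for 29.8% of those between 2 genes neither bordering gene held a summit. The median distance of the 20 was 312.5 bp, and that of all members 181 bp. The others with a gene in reach on 1 side were nearest to AT4G10680 (173), MEE67 (158), the zinc finger gene NFXL1 (147), AT2G47150 (145), AT5G16500 (142) and AT5G38030 (142). AT2G47150 lay 65 bp from its summit, in a gap that the boron exporter gene BOR1 borders on the other side.

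**Figure D4:**
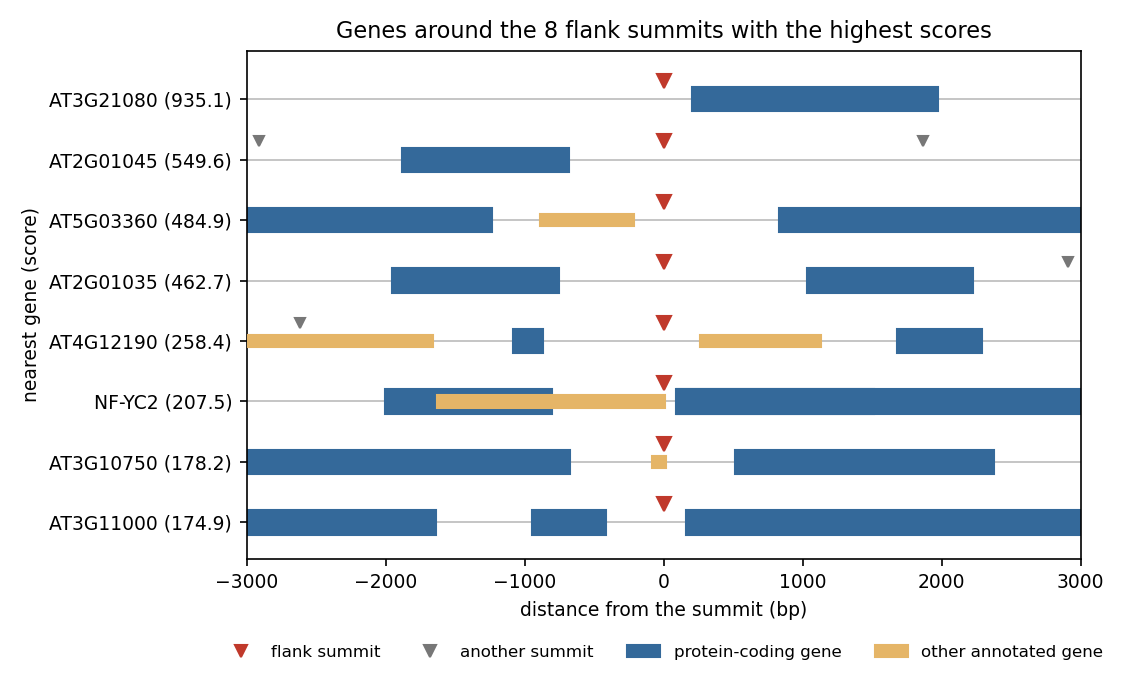
Annotated genes within 3000 bp (horizontal axis, bp from the summit) of the 8 flank summits with the highest scores, named by the nearest gene with the score in brackets; red triangles are the flank summits, grey triangles other summits, blue bars protein-coding genes and yellow bars other annotated genes. The first 5 rows have a protein-coding gene within 1000 bp on 1 side only, and the yellow bars of the NF-YC2 and AT3G10750 rows reach under the summit.

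Between 2 near genes, the highest score was 208, at position 21024392 of chromosome 1. It lay 90 bp from NF-YC2, which encodes a subunit of the CCAAT-binding factor NF-Y, and 805 bp from MYB72, a regulator of the root's response to iron shortage, and was inside the long noncoding RNA gene AT1G56165. Neither bordering gene held a summit. A score of 178 stood inside the microRNA gene MIR158a at position 3366413 of chromosome 3, 514 bp from AT3G10750 and 674 bp from the arabinofuranosidase gene ASD1. In a gap of only 73 bp on chromosome 4 (position 7021418, score 173) the summit lay 4 bp from SR, a serine racemase gene, and 70 bp from AT4G11630.

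The immune kinase gene BIK1 and AT2G39670 shared a summit with a score of 162 in a gap of 188 bp (chromosome 2, position 16534084), 98 and 91 bp from it, and each also held a summit inside. MYB58, a regulator of lignin synthesis, and AT1G16480 stood 391 and 251 bp from a summit with a score of 155 (chromosome 1, position 5629264), which lay inside the noncoding RNA gene AT1G16489. ROL5 and AT2G44280 bordered a summit with a score of 151, and SPX2, a phosphate-sensing regulator, was 52 bp from one of 133 that it shared with TED4, the haem oxygenase gene of phytochrome chromophore synthesis. The ubiquitin receptor gene DSK2 lay 12 bp from a summit with a score of 128. CML42, which encodes a calmodulin-like protein, was 573 bp from one of 125 that was nearest to AT4G20790. GS2, the plastid glutamine synthetase gene, was 628 bp from one of 119, and CPSF73-I, which encodes an endonuclease of mRNA 3′ end formation, was 58 bp from one of 109.7 in a gap of 79 bp. The other 4 of the 15 highest members between 2 near genes were nearest to AT3G11000 (175), AT4G05360 (156), AT1G61460 (146) and AT5G48770 (117).

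The shortest gaps with a member were of 27, 31 and 41 bp. In the first, between HEMB1, an enzyme gene of tetrapyrrole synthesis, and COX19-2, the summit at position 26235045 of chromosome 1 scored 6.07, and both genes held a further summit. The others lay between AT5G23610 and PDR2, a gene of the phosphate starvation response (score 9.67), and between DA1, a regulator of organ size, and AT1G19290 (score 5.10), where no bordering gene held one.

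Of the flank summits, 353 (19.6%, interval 17.8 to 21.5) lay inside another annotated gene, although such genes cover 6.65% of flank bases. The density was 218 per Mb inside them (196 to 242) and 63.8 per Mb in flank bases with no other gene (60.6 to 67.2). Restricted to bases within 250 bp of a protein-coding gene, it was 368 per Mb (304 to 441) and 109 per Mb (102 to 116). Long noncoding RNA genes held 127 members (244 per Mb), pseudogenes 103 (137 per Mb) and other noncoding RNA genes 83 (285 per Mb). MicroRNA genes held only 1 member, the summit in MIR158a, or 51.3 per Mb.

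Nuclear tRNA genes, which RNA polymerase III transcribes from promoters within the gene, held 29 members, or 881 per Mb (590 to 1266). The value was 880 per Mb (552 to 1333) within 250 bp of a protein-coding gene. Of the 625 tRNA genes, 448 reached into a flank. Scores of these 29 summits ran from 2.63 to 73.3 with a median of 7.92, and 20 of them had a near protein-coding gene on each side. The highest were in AT5G05795 (73.3, 297 bp from AT5G05800), in AT5G59385 (61.6, 249 bp from the methyl-CpG-binding domain gene MBD6) and in AT5G41265 (48.6, 93 bp from AT5G41270 and 94 bp from the kinase gene BSK8). Genes of spliceosomal snRNAs held 8 members, among them U2.3 (34.3), U6-1 (15.4), U5.6 (12.9), U4atac (11.9) and U12 (5.10). Genes of snoRNAs, which guide modification of ribosomal RNA, held 8, with SNOR77 highest (16.9). Many tRNA and snRNA genes have near-identical copies, so reads of these places may have been shared among copies.

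**Figure D5:**
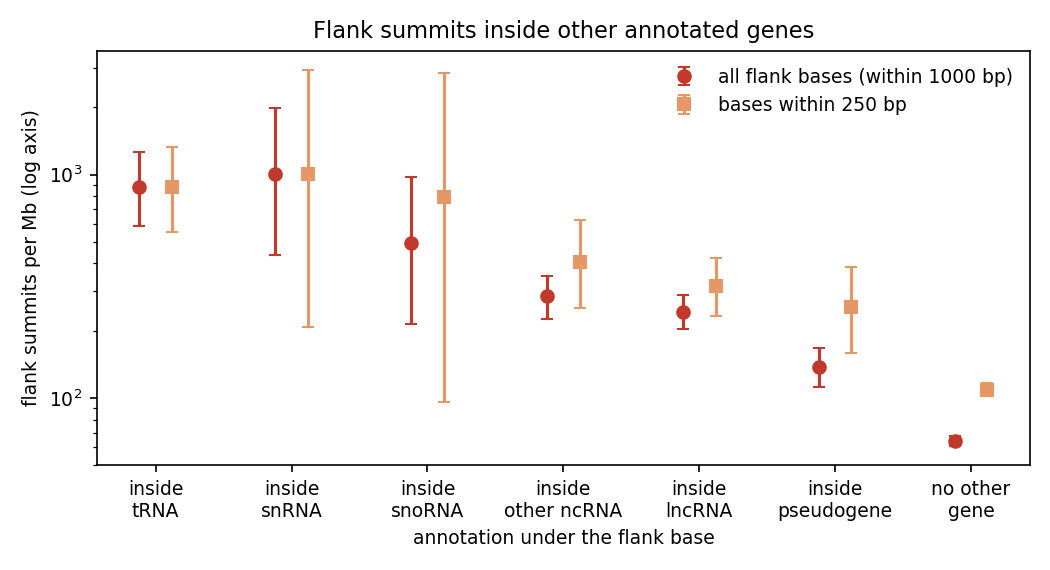
Flank summits per Mb (vertical log axis) by the annotation under the flank base (horizontal axis), for all flank bases (circles) and for bases within 250 bp of a protein-coding gene (squares), with exact 95% Poisson intervals. Bases in tRNA genes stand at 881 and 880 per Mb, and bases with no other gene at 63.8 and 109 per Mb.

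Of 27444 protein-coding genes, 2660 (9.69%) bordered a gap with a flank summit within 1000 bp of them, and 1441 (5.25%) did so without a summit inside. The median extent was 2315.5 bp for the 2660 genes, 1986 bp for those without a summit inside, and 2078 bp for all protein-coding genes. In 10 lists of genes from textbook knowledge, the share with a flank summit was read against this background of 9.69%.

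Circadian clock genes had one in 6 of 20 cases (30%, interval 11.9 to 54.3). Without a summit inside there were 2 of 20 (10%, interval 1.23 to 31.7), an interval that includes the 5.25% of all protein-coding genes. A summit inside was held by 14 of the 20 (70%), and by 47.7% of all protein-coding genes. Over the 10 lists the share with a summit inside ran from 53.8% (auxin) to 81.5% (light signalling). RVE8, a MYB-like activator of evening genes, had the highest score, 40.5 at position 2945890 of chromosome 3, 349 bp from the gene, and no summit inside. GI, which links the clock to flowering, shared a summit with a score of 7.36 with PFL in a gap of 73 bp, 60 bp from GI and 14 bp from PFL, whose product is a ribosomal protein. PRR7, a clock repressor gene, was 519 bp from a summit with a score of 5.82 that lay 5 bp from RHL2. RVE1 stood 156 bp from a summit with the same score, nearer to the autophagy gene APG5 (122 bp). The morning repressor gene LHY had one 121 bp away (3.38), and ELF4, of the evening complex, one 999 bp away (3.58) and one 383 bp away on its other side (2.46). All but the RVE8 score were below the nuclear median of 9.07, and with GI, PRR7 and RVE1, and with the higher score of ELF4, the summit was nearer to another gene.

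In the other 9 lists the intervals of the share included 9.69%. The intervals were not adjusted for the reading of 10 lists. Light signalling genes had a flank summit in 4 of 27 cases: HYH, a bZIP factor related to HY5 (17.2, 91 bp), FHL (10.9, 39 bp), PIF3 (6.84, 1 bp) and SPA3 (5.34, 378 bp away and 13 bp from AT3G15359). Photoperiodic flowering genes had one in 2 of 17, namely CDF1, a repressor of CO (36.4, 740 bp away and 266 bp from AT5G62440), and GI. Other flowering regulators had one in 3 of 24, which were the autonomous pathway genes FLK (4.87, 509 bp) and LD (2.63, 17 bp) and the floral integrator SOC1 (2.81, 177 bp). Histone demethylase genes had one in 3 of 25: the JMJ28 relative JMJ27 (15, 635 bp), JMJ30 (11.2, 705 bp) and LDL1 (6.07, 69 bp).

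Of the genes for H3K9 and DNA methylation, 2 of 24 had one, the remodeller gene DDM1 (8.48, 44 bp) and the methyltransferase gene DRM1 (3.78, 583 bp). Auxin genes had one in 3 of 26, which were the receptor genes AFB3 (13.2, 50 bp) and TIR1 (4.64, 865 bp) and the response factor gene ARF5 (7.92, 13 bp). Among stress transcription factor and JAZ genes, ZAT12 (5.82) and WRKY70 (3.78) had one, 2 of 19. Nuclear photosynthesis genes had one in 5 of 23, with LHCA1 (46.4, 64 bp, in a gap of 180 bp shared with CXIP1), LHCA3 (44.2, 597 bp away and 489 bp from AT1G61540), LHCB4.1 (16.5, 175 bp away and 80 bp from AIRP2) and PSBO1 (10.6, 462 bp) highest. The reference genes with one were UBQ11 (40.5, 284 bp) and GAPC1 (7.64, 95 bp), 2 of 14.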

How the data were processed

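Per the labels, ChIP and input libraries came from seedlings of 1 genotype. Per the submitters' processing notes, Bowtie2 and MACS2 were used on TAIR10. Neither the versions nor the threshold, the pooling of libraries or the use of the input is stated in the sources at hand. The deposited list of 18410 summits holds 1 bp intervals and a score laid out as MACS2 writes summits, a −log10 of either a p-value or a q-value.

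Protein-coding extents on 5 chromosomes came from an NCBI table of TAIR10.1 (RefSeq), which gives no strand. At no shift 88.2% of summits lay inside these genes, and after shifts of 200 bp 80.6% and 80.2%. Overlapping extents were merged, and gaps and the bases at each distance were counted exactly between the first and last gene of each chromosome. A bordering gene is the gene whose end forms the gap's edge. Placement was tested on simulated data. Binomial and Poisson intervals are exact, at 95%.

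Members and lists were chosen with earlier results of these data known. Named are the nearest genes of the 20 highest flank scores, the 15 highest members between 2 near genes (planned as 5 for each strand arrangement), members in the 3 shortest gaps, the 5 gaps with most members (those with the highest scores, as many were equal), summits at the distance limit, and up to 4 genes of each list, all 6 of the clock list being named after their values were seen. Of 219 list entries, 164 matched by symbol, 34 by synonym and 21 by locus. Strand, gene starts, motifs and sequences were planned and are not analysed here. Intervals used SciPy 1.17.1, tables pandas 2.3.3 with numpy 2.4.6, figures matplotlib 3.10.9, all under Python 3.11.15.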

Additional observations from a re-analysis of the deposited data

How the results depend on the processing

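Values that moved beyond their counting interval follow. With only scores at or above the nuclear median, flank summits were 9.24% of nuclear summits, 58.8% had a near gene on each side, the median gap was 1022 bp, 4.84% of genes had a flank summit, and the density ratio of flank to gene bases was 0.276. With only scores of 20 or more these values were 9.02%, 58.4%, 1059.5 bp, 2.12% and 0.269. With flanks of 500 bp they were 8.06%, 40.7%, 902 bp, 7.37% and 0.374, and the median distance was 135 bp. With flanks of 2000 bp they were 10.9%, 70.6%, 1372 bp, 11.6% and 0.240, with a median distance of 213 bp. With all annotated genes in place of protein-coding genes they were 8.30%, 67.7%, 787 bp, 6.54% and 0.235, with a median distance of 126 bp. Flank width and gene set change these values by construction, and a stricter score leaves fewer summits. The score difference of flank minus inside stayed between -1.15 and -0.39 in all 6 alternatives. Merging summits within 300 bp changed nothing, since none were that close. Alternatives for strand arrangement and gene starts were not run, as strand was not used here. No paired analysis was possible because the list holds no value per library, and for the same reason no replicate could be left out. Depth is unknown, and whether reads could be placed uniquely in the gaps was not examined.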

Other observations

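Of the 1751 gaps and chromosome ends with a flank summit, 50 held 2 and none held more. The highest scores among these pairs were in the gap between AT4G10680 and AT4G10695 (173 and 20.8), between PP2-A10, a phloem lectin-like gene, and the zinc finger gene NFXL1 (147 beside NFXL1 and 13.6 beside PP2-A10), and between AT5G16500 and RGP5 (142 beside AT5G16500 and 33.4 beside RGP5). In the last 2 gaps all 4 summits lay inside an annotated pseudogene. The gap between AT4G38300 and AT4G38310 had scores of 106 and 4.64, and the gap of 1718 bp between AT4G02880 and AT4G02870 had scores of 83.1 and 9.37 at summits 992 bp apart.

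By chromosome, flank summits were densest on chromosome 3 (86.2 per Mb of flank) and sparsest on chromosome 2 (60.5), and made up 10.7% of chromosome 3 summits (exact 95% interval 9.74 to 11.7) and 9.71% of chromosome 2 summits (8.59 to 10.9). In the 38 windows of 500000 bp with a low density of protein-coding genes, 32 of 302 summits were flank summits (10.6%, interval 7.36 to 14.6). In the other 202 windows it was 9.79%. The flank density was 19.95 per Mb in the gene-poor windows and 78.0 per Mb elsewhere.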
